A study of Mus musculus with 5 samples.

Results

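Granulosa cells, the somatic cells that surround and feed the oocyte in each ovarian follicle, were examined while they copied their DNA. The cells were drawn from 5 single-cell libraries of mouse ovary, and 1015 of the 48163 cells in these libraries met the definition of an S-phase granulosa cell. A cell was taken when it had at least 1000 detected genes, less than 15% of its UMIs (unique molecular identifiers, each counting 1 captured mRNA molecule) from mitochondrial genes, at least 1 UMI of at least 5 of 8 replication genes (Cdc6, E2f1, Uhrf1, Mcm5, Mcm3, Ung, Hells and Cdt1), at least 5 UMIs of the granulosa gene Inha, and 0 UMIs of the mitotic genes Ube2c, Ccnb1 and Plk1 and of the mesenchymal genes Dcn and Tagln. Because measured transcripts chose the cells, every comparison with other granulosa cells below is a description, with no test.

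The libraries held ovaries of untreated C57BL6/J mice aged 2, 3, 4, 5 and 6 wk, with 1 library per age, and all ages shared that strain, with no transgene named in the labels. Ovaries were dissociated with trypsin, live cells were sorted, and the number of mice behind each library was not given in the sources used here. Age, mice and library therefore cannot be told apart, no test between ages was possible, and the intervals given are 95% intervals that cover counting error only. The libraries of 2, 3, 4, 5 and 6 wk held 9471, 9253, 11077, 7779 and 10583 cells, and the matrices of 5 and 6 wk were written by a later version of the counting software than those of 2 to 4 wk.

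Follicles grow by proliferation of granulosa cells. In G1, D cyclins pair with CDK4 or CDK6 and cyclin E with CDK2 to free E2F transcription factors from the RB family, and E2F then switches on the genes for origin licensing, the replication fork and nucleotide supply. Replication starts when the loaded MCM helicase is activated, and the genes of mitosis are switched on later. Granulosa cells of the mouse are known for their dependence on cyclin D2, which FSH and activin induce, and follicles are staged in part by the products of these cells, with AMH made by small growing follicles and the activin and inhibin subunits and aromatase by larger ones.

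Promoters of the genes compared differ in which of 2 sets of letters they hold, and 4 examples are shown. The sequences are from RefSeq on GRCm38.p6, run from 250 bases before to 50 bases after the annotated start, and are written 5′ to 3′ on the strand of the gene. The capitals mark E2F-type letters (TTTGGCGC, TTTCGCGC, TTTCCCGC or TTTGCCGC, on either strand) or the CHR letters (TTTGAA, on either strand), the latter named for the cell cycle genes homology region of genes expressed in G2 and mitosis. Mcm6, a subunit of the replicative helicase outside the selection, and Pclaf, a partner of PCNA, carried only E2F-type letters, Cdk1 carried both kinds, and Top2a only the CHR letters. They were picked because they hold the letters: Pcna, Rrm2, Ccne1, Mcm10, Brca1 and E2f1 held neither set in this window, and the replication genes Mcm2 and Cdc45 only the CHR letters.
Mcm6, minus strand, chr1:128359656-128359955: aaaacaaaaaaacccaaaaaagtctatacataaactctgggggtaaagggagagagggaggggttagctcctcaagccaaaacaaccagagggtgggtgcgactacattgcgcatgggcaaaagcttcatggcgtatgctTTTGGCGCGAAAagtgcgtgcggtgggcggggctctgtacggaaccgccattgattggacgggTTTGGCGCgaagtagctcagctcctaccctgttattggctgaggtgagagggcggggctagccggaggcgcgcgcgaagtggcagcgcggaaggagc
Pclaf, plus strand, chr9:65890073-65890372: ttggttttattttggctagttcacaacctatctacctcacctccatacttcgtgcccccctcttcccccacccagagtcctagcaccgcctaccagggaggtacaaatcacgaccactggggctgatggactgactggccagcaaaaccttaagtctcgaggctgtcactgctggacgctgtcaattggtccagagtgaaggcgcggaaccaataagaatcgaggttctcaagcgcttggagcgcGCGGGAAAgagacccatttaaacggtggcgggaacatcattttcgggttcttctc
Cdk1, minus strand, chr10:69352863-69353162: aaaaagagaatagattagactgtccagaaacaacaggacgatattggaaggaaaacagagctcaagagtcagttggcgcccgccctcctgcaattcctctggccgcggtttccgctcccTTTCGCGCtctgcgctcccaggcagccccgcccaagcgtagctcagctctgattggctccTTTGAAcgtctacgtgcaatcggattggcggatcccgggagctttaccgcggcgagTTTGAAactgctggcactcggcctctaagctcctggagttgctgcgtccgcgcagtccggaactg
Top2a, minus strand, chr11:99024140-99024439: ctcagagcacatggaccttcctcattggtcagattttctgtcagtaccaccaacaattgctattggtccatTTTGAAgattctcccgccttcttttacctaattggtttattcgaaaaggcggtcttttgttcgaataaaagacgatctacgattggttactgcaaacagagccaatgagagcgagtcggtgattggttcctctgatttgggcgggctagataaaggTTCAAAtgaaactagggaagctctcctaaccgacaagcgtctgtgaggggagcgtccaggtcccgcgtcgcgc

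In Mcm6 the long run of capitals is TTTGGCGC at position -110 from the start and TTTCGCGC on the opposite strand at -106, which overlap, and the second run is TTTGGCGC at -47. Pclaf held TTTCCCGC on the opposite strand at -5. In Cdk1, TTTCGCGC began at -131 and TTTGAA at -71 and -15, and in Top2a TTTGAA lay at -179 and, on the opposite strand, at -23. E2F-type letters were found in 6 of the 8 replication genes used for selection (75%) and in 1 of the 25 genes of the G2 and mitosis list that had a promoter entry (4%), against 704 of all 27025 genes with a promoter entry (2.60%) and 4.62% of the 10395 genes with an entry among those tested below, of which 77.5% had one. CHR letters were found in 19 of those 25 genes (76%) and in none of the 8, against 20.2% of all genes with an entry and 14.1% of those tested. A match is only a run of letters, and a promoter without them says nothing about the factor.

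The members carried marks of granulosa cells that did not choose them. Gja1, the gap junction protein connexin 43, Nr5a2, a nuclear receptor of granulosa cells, and Esr2, estrogen receptor beta, were present at every age. Nr5a2, for example, stood at 348, 458, 434, 431 and 516 CPM (UMIs of a gene scaled to a common total per class of cells) at 2, 3, 4, 5 and 6 wk, against 7.64 CPM in resting stromal cells pooled over ages. Levels are shares of the molecules counted at the 3′ end of the mRNA, so they were not divided by gene length. Inha, the inhibin alpha subunit, was part of the rule, so its level is no support for the label: the median member held 53, 92, 93.5, 84 and 92 UMIs of it at 2 to 6 wk, and only 8 members had fewer than 10.

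The lists of other cell types were at low levels, with the theca list the highest of them from 5 wk on. The rule left out every cell with a UMI of Dcn or Tagln, so low stromal and smooth muscle levels were in part set by the selection and do not support the label. The 7 stromal genes summed to 85.9, 48.6, 35, 19.7 and 21.8 CPM in members at 2 to 6 wk against 7345 CPM in Dcn-rich stromal cells, and Col1a2, a collagen chain, was the most abundant at 13.2 CPM. The 4 smooth muscle genes summed to between 13.6 and 19.6 CPM, led by Acta2, and the 3 pericyte genes to at most 8.23 CPM. The oocyte genes Zp2 and Zp3 and the epithelial gene Lrrn4 had no UMI, and the 5 oocyte genes together reached at most 1.9 CPM. The 5 theca genes summed to 41.8, 21.3, 28.4, 169 and 68.7 CPM in members at 2 to 6 wk and to 50.8, 19.7, 32.6, 1507 and 146 CPM in resting cells. Their most abundant gene, Mgarp, was not confined to a few cells: 15 of 202, 43 of 253, 59 of 220, 55 of 141 and 89 of 199 members had a UMI of it. The 5 endothelial genes summed to at most 13.0 CPM except at 5 wk, where they reached 58.7 CPM against 9.52 CPM in resting cells. The 7 blood genes, which do not include Cd74 or Lyz2, summed to at most 27.2 CPM. At 5 wk some genes of these lists lay in a few cells: 1 member held 200 of 206 UMIs of Cyp17a1, the theca androgen enzyme, and 2 members held 44 of 47 of the endothelial cadherin Cdh5. The same held for the MHC class II gene Cd74, which is outside the lists and stood at 62.4 CPM: 1 member held 201 of its 206 UMIs. In all, 12 of 1015 members (1.18%) had at least 3 UMIs of Cyp17a1, Cd74, Lyz2 or Cdh5, against 225 of 5964 resting cells (3.77%), of which 199 were at 5 wk. Scrublet marked 6 members as doublets. No cell barcode was shared between members of different libraries, although 273 barcodes occurred in more than 1 library.

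S-phase cells were found at every age and took a larger share of granulosa cells at 2 and 3 wk than at 4 and 5 wk. The libraries of 2, 3, 4, 5 and 6 wk held 202, 253, 220, 141 and 199 members among 2000, 2557, 3378, 2065 and 2590 cells of the granulosa gate (the same limits on quality, Inha, Dcn and Tagln, with no demand on cell cycle genes). The share of the gate was 10.1% at 2 wk (exact binomial interval 8.81 to 11.5), 9.89% at 3 wk (8.76 to 11.1), 6.51% at 4 wk (5.70 to 7.40), 6.83% at 5 wk (5.78 to 8.0) and 7.68% at 6 wk (6.69 to 8.78). The intervals of 2 and 3 wk did not overlap those of 4 and 5 wk, that of 3 wk overlapped that of 6 wk, and the mean over the 5 libraries was 8.20% ± 1.69 (SD, n = 5).

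Cells in G2 or mitosis, defined as gate cells with a UMI of at least 2 of Ube2c, Ccnb1 and Plk1, went the other way. They made up 9.70% and 11.3% of the gate at 2 and 3 wk and 18.1%, 16.6% and 16.5% at 4, 5 and 6 wk, so that 1.04 S-phase cells were found per G2 or mitosis cell at 2 wk and 0.361 at 4 wk. The rule removes any cell with a mitotic UMI, and when such cells were kept, the share with 5 or more replication genes was 19.35%, 20.7%, 17.8%, 17.2% and 21.3% at 2 to 6 wk (mean 19.3% ± 1.79, SD, n = 5). In this wider count the interval of 2 wk (17.6 to 21.2) overlapped those of 4 wk (16.5 to 19.1) and 5 wk (15.6 to 18.9), so the larger share at 2 wk was lost, while 3 wk (19.2 to 22.4) stayed above them. Depth also moves the share, since a deeper cell shows more of the 8 genes: members had medians of 21136, 17901, 17282, 22971 and 23218 UMIs against 15388, 10929, 10648, 14383 and 14868 in resting cells and 11662, 8060, 7395, 9305 and 9097 in Dcn-rich stromal cells, and with every cell thinned to 8000 UMIs the shares were 5.43%, 7.11%, 5.42%, 4.52% and 5.61% (117, 177, 177, 87 and 154 cells). On that scale 3 wk was the highest and 2 wk lay between 4 and 6 wk.

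**Figure D1:**
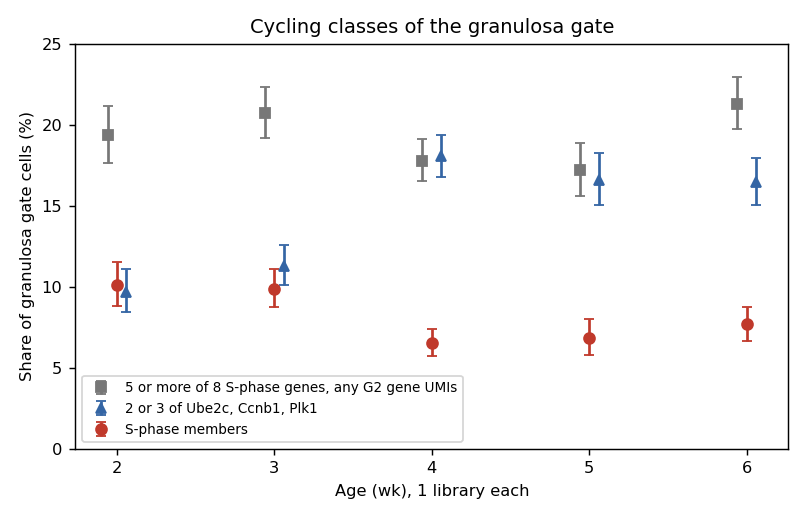
Share of granulosa gate cells (y axis, percent) at each age (x axis, wk), with exact 95% binomial intervals as bars, for S-phase members (red circles), cells with at least 5 of the 8 replication genes with or without mitotic UMIs (grey squares) and cells in G2 or mitosis (blue triangles). The members lie between 6.51% and 10.1%, the G2 and mitosis cells between 9.70% and 18.1%, and the grey squares between 17.2% and 21.3%.

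The selection genes were present at every age. E2f1 varied most among them, at 38.7, 82.6, 79.9, 51.5 and 44.3 CPM at 2 to 6 wk, with 3 and 4 wk the highest. Mcm5, another helicase subunit, stood at 103, 141, 157, 116 and 111 CPM in members at 2 to 6 wk and at 3.55, 3.72, 2.61, 2.41 and 1.93 CPM in resting cells, here meaning gate cells with no mitotic UMI and a UMI of at most 1 of the 8 genes. Ung, a uracil DNA glycosylase, stood at 103, 108, 113, 112 and 120 CPM in members. Ung stood furthest above G2 and mitosis of the 8, by a geometric mean of 3.19-fold over the libraries, against 1.14-fold for Uhrf1, a reader of newly copied DNA, and 1.85-fold for E2f1 itself. Of the members, 355, 306, 227 and 127 had a UMI of 5, 6, 7 and 8 of the genes, and 409 gate cells with no mitotic UMI lay just outside with 4. A further 31 cells met all other limits but had fewer than 5 UMIs of Inha, and 405 were left out for a UMI of Dcn or Tagln.

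Beyond the genes of the rule, the members held more than resting granulosa cells of many genes of DNA replication and of others outside the cell cycle lists. Of 13408 genes with at least 50 UMIs, 243 (1.81%) were at least 2-fold higher in members in each of the 5 libraries and 26 (0.194%) at least 2-fold lower. Of the 243, 102 were among the 196 genes of 10 cell cycle lists and 141 were in none. By any amount, 2387 genes (17.8%) were above resting cells and 2953 (22%) below them in each of the 5 libraries. The selection fixed this contrast, so these counts describe the cells that were picked. The middle gene of all tested lay at a log2 ratio of -0.06.

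**Figure D2:**
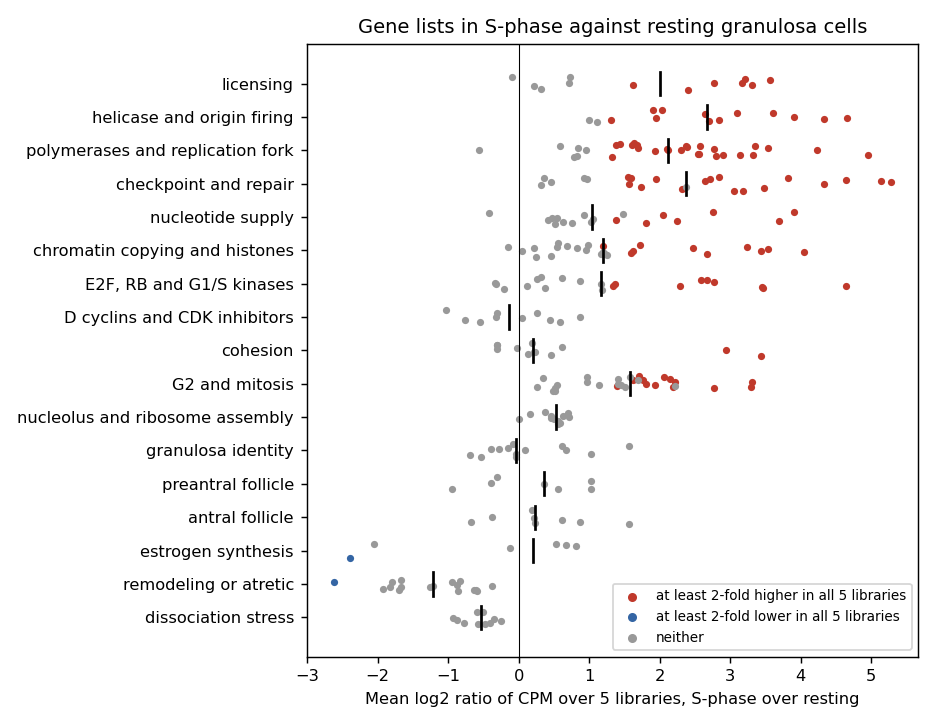
Mean log2 ratio of CPM in S-phase over resting granulosa cells across the 5 libraries (x axis) for each tested gene (dots) of 17 gene lists (rows), with the list median as a black line. Red dots were at least 2-fold higher and blue dots at least 2-fold lower in every library. Red dots occur in the cell cycle lists and not in the granulosa, follicle stage or remodeling lists.

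Licensing genes mark origins in G1 by loading the MCM ring. Of 12 genes, 7 were at least 2-fold higher in members, and the list median was 2.01 (log2). Mcm6 (ENSMUSG00000026355) stood at 252, 243, 257, 207 and 231 CPM in members at 2 to 6 wk, at 31.9, 36.2, 47.8, 28.8 and 32.3 CPM in resting cells and at 164, 158, 141, 122 and 127 CPM in G2 and mitosis. These 3 classes did not overlap, and S phase was the highest in every library. Mcm4 behaved alike with a geometric mean of 9.90-fold over resting cells, and Gmnn, the protein that blocks a repeat of licensing, was 11.8-fold over resting cells but 1.43-fold lower than in G2 and mitosis. Orc1, the subunit of the origin recognition complex known to be cyclic, was 9.03-fold over resting cells, and Orc2 only 1.66-fold.

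Helicase activation and origin firing gave the most even list. Of 14 genes, 12 were at least 2-fold higher, with a median of 2.67. Mcm10, which helps the helicase to unwind, stood at 16.5, 15.7, 16.2, 16 and 19.1 CPM in members and at or under 1.08 CPM in resting cells, so the groups were far apart at each age. Cdc45, part of the active helicase, was 20.2-fold higher. Dbf4, the activator of the firing kinase Cdc7, was 2.00-fold higher on average, missed the 2-fold limit in 1 or more libraries with a lowest ratio of 1.52, and was 3.75-fold higher still in G2 and mitosis.

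The fork itself was represented by 31 genes, of which 25 were at least 2-fold higher, with a median of 2.12. Pcna, the sliding clamp, stood at 70.3, 67.5, 64.2, 85.7 and 94.9 CPM in members and at 19.6, 18.1, 14.5, 23.6 and 24.8 CPM in resting cells. It was thus 3.83-fold higher with little spread (ratios of 3.59 to 4.44) and stood at 120, 80.6, 59.5, 81.5 and 109 CPM in G2 and mitosis, above members at 2, 3 and 6 wk and below them at 4 and 5 wk. Pole, the leading strand polymerase, was 18.8-fold higher, Prim1, the primase, 10.1-fold, and Lig1, which seals lagging strand fragments, 7.45-fold. Pold4, a small subunit of polymerase delta, was the exception, at 14.5, 14, 22, 23.6 and 19.1 CPM against 20.7, 18.9, 39.1, 29.7 and 30.5 CPM, below resting cells in all 5 libraries. By any amount, 30 of the 31 genes were above resting cells in all 5 libraries, against 17.8% of all genes tested. Rpa3, a subunit of the single-strand binding protein, was among these 30 but also differed between libraries. It stood at 60.1, 7.52, 9.82, 41.5 and 55.7 CPM in members and was low at 3 and 4 wk in resting and G2 cells too, the cause of which was not tested.

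Genes for checkpoint and repair resembled those of the fork. Of 23, 17 were at least 2-fold higher, with a median of 2.38. Chek1, the kinase that answers stalled forks, stood at 31.2, 44.7, 45.4, 39.4 and 47.3 CPM in members and at 2.66, 4.50, 2.61, 2.73 and 2.48 CPM in resting cells. Exo1, an exonuclease of mismatch and break repair, was 38.8-fold and Brca1, of break repair, 20.2-fold higher. Neil3, a glycosylase, belonged to a later set: it stood between 0.904 and 4.54 CPM in members and was 19.3-fold higher in G2 and mitosis.

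Most nucleotide supply genes were higher in members. Of 18 genes, 17 were above resting cells by any amount in all 5 libraries (against 17.8% of all genes tested) and 7 were at least 2-fold higher in each, among them Rrm1, Rrm2, Tyms, Dut, Tk1 and Dck, and the median was 1.04. Rrm2, the cell cycle subunit of ribonucleotide reductase, stood at 25.3, 29.2, 31.3, 39.4 and 37.4 CPM in members, at 2.32, 1.43, 2.38, 3.05 and 3.81 CPM in resting cells and at 206, 91.5, 66.1, 121 and 137 CPM in G2 and mitosis. The 3 classes were ordered in the same way in every library, with the highest level after S phase. Rrm2b, the subunit used outside S phase, was below resting cells in all 5 libraries at a geometric mean of 0.747 of their level.

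Chromatin genes gave 10 of 25 at least 2-fold higher, with a median of 1.20. They included both subunits listed of the histone chaperone CAF-1, Chaf1a (16.5-fold) and Chaf1b (9.47-fold), and Dnmt1, which copies DNA methylation (5.57-fold, ratios of 5.35 to 5.88). None of the 6 Hist1 genes of the list was at least 2-fold higher in every library, and these genes are known for mRNAs that mostly lack a poly(A) tail. Hist1h1b, a linker histone and the most abundant of them, stood at 40.2, 66.0, 55.5, 62.1 and 106 CPM in members, at 32.3, 53.4, 24.2, 34.0 and 63.4 CPM in resting cells and at 463, 353, 295, 736 and 691 CPM in G2 and mitosis. It was 1.61-fold higher than in resting cells and 7.6-fold lower than in G2 and mitosis, where the others were 6.72-fold to 20.3-fold higher than in members. In stromal S-phase cells pooled over ages the same gene was at 57.1 CPM against 5.70 CPM in resting stromal cells.

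The E2F and RB list gave 9 of 20 at least 2-fold higher, with a median of 1.18. Cyclin E, which starts S phase with CDK2, was among them: Ccne1 stood at 16.5, 10.3, 13.3, 16.6 and 22.1 CPM in members and at 3.41, 2.36, 1.92, 2.22 and 2.32 CPM in resting cells. Ccne2 stood at 13.8, 20.4, 27.1, 21.5 and 29.4 CPM against 2.87, 3.22, 4.18, 2.35 and 3.53 CPM. Neither gene's groups overlapped. The repressors E2f7 and E2f8, which shut the programme down, were 10.9-fold and 25-fold higher than in resting cells but low, at no more than 4.84 CPM in members, and 4.78-fold and 7.67-fold higher in G2 and mitosis. Rb1 itself was 1.25-fold higher and Myc at 0.800 of the resting level.

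Most cohesion genes differed from resting cells by less than 2-fold, with a list median of 0.20. By any amount, 7 of 12 were above resting cells in all 5 libraries (17.8% of all genes tested were) and 3 below them (22%). Only 2 were at least 2-fold higher in each: Esco2, the acetyltransferase that closes cohesin rings behind the fork (10.8-fold), and Cdca5, sororin (7.71-fold). Both were higher again in G2 and mitosis, by 22.3-fold and 13.8-fold.

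None of the 11 tested D cyclins, their kinases and CDK inhibitors was at least 2-fold higher or lower in every library. Ccnd2 (ENSMUSG00000000184), cyclin D2, gave the most UMIs of the 3 D cyclins in members: it stood at 725, 747, 852, 533 and 956 CPM in members and at 528, 556, 355, 276 and 401 CPM in resting cells, higher in members at each age by ratios of 1.34 to 2.40. Ccnd3 stood at 23.3, 20.4, 22.6, 22.7 and 17.4 CPM in members, under resting cells in every library (24.9, 22.9, 25.3, 42.3 and 20.0 CPM), and was found after thinning in 12.1% to 16.7% of members. Ccnd1 stood at or under 4.54 CPM in members of every library. Stromal cells chosen by the same 8 replication genes, 299 cells with Dcn in place of Inha, had 107 CPM of Ccnd1 against 19.7 CPM in resting stromal cells, and their Ccnd2 was at 310 against 276 CPM. These values stand side by side without a test, since the genes that chose the cell types are part of the comparison.

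Cdkn1b, the inhibitor p27, stood at 47.9, 35.5, 40.3, 56.0 and 34.4 CPM in members and at 63.5, 54.8, 57.9, 73.4 and 59.4 CPM in resting cells. It was lower in members in each library (0.685 of the resting level), a direction that turned to a log2 of 0.07 when mean UMIs per cell replaced CPM, a scale on which the middle gene itself moved from -0.06 to 0.56 because members hold more UMIs. Genes given here as below resting cells by less than that shift, such as Pold4, Rrm2b and Myc, turn in the same way by construction. Cdkn1c, p57, was at 0.489 of the resting level, and Cdkn2a had no UMI.

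**Figure D3:**
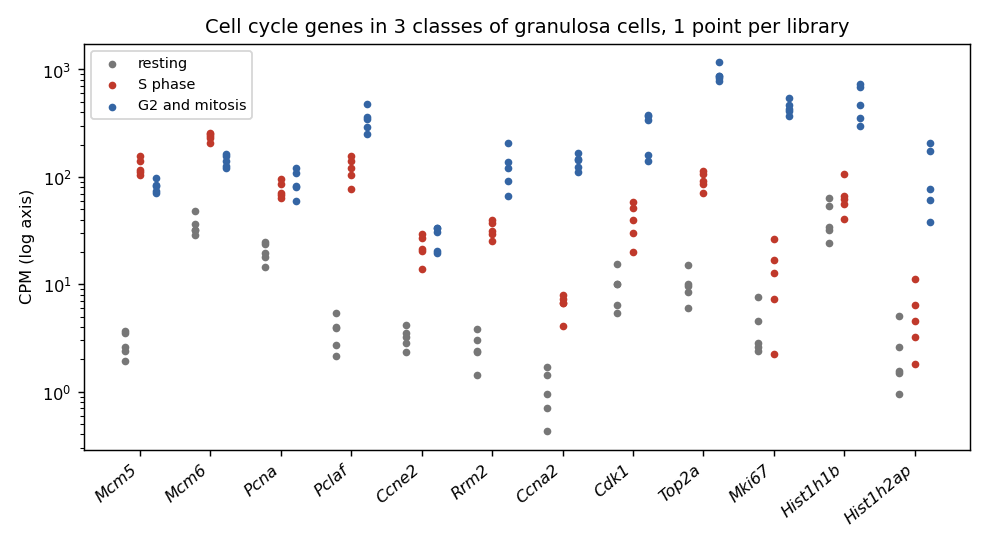
CPM on a log axis (y) of 12 cell cycle genes in resting, S-phase and G2 or mitosis granulosa cells (x), with 1 point for each of the 5 libraries. Mcm5 and Mcm6 peak in S phase in every library, Pcna is at 64.2 to 94.9 CPM in S phase and 59.5 to 120 CPM in G2 and mitosis, and Top2a and Mki67 are highest in G2 and mitosis.

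The members held little of the mitotic programme. Of 12582 genes tested against G2 and mitosis, 14 (0.111%) were at least 2-fold higher in members in every library and 225 (1.79%) at least 2-fold lower, and all 29 genes of the G2 and mitosis list were among the lower. Against resting cells, 13 of the 29 were at least 2-fold higher and 23 were above 1 in every library (17.8% of all genes tested were), with a median of 1.58. Top2a, the topoisomerase that untangles copied DNA, stood at 86.8, 115, 106, 71.1 and 92.2 CPM in members, at 9.70, 15.2, 10.1, 5.97 and 8.55 CPM in resting cells and at 1163, 869, 825, 789 and 872 CPM in G2 and mitosis. Members were between the other classes in each library without overlap, 9.82-fold over resting and 9.63-fold under G2. Mki67, the proliferation antigen, was nearer to resting cells, at 2.26, 16.8, 26.3, 12.7 and 7.35 CPM against 2.39, 4.57, 7.55, 2.60 and 2.81 CPM, and did not exceed them at 2 wk. It was higher in G2 and mitosis in every library. Ccna2, cyclin A2, was 6.85-fold over resting cells and 21.5-fold under G2, and Hmmr, a spindle protein, hardly present in members, at 3.18 CPM or less. The mitotic genes Ube2c, Ccnb1 and Plk1 were required to be absent, so part of this gap was set by the rule.

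Members with more of the 8 replication genes also held more of the later cell cycle transcripts. Pooled over libraries, Top2a stood at 36.6, 81.1, 129 and 203 CPM in members with 5, 6, 7 and 8 of the genes. Rrm2 stood at 12.7, 23.3, 44.4 and 75.3 CPM and Ccna2 at 1.91, 3.53, 6.96 and 22 CPM in the same order. Top2a and Rrm2 increased with each step in every library. Ccna2, and Ccne1 from 7.36 to 25 CPM, did so in the pooled cells but not in each library. Ccnd2 (728, 812, 801 and 764 CPM), Cdkn1b (43.1, 40, 43.8 and 40.6 CPM) and Amh (690, 686, 734 and 712 CPM) varied little in the pooled cells, although Amh ran at 452, 507, 298 and 618 CPM at 5 wk alone. Depth went with the count as well, from a median of 18972 to 23756 UMIs, and its part in the trend was not tested. After thinning to 8000 UMIs, 8.42% of members had a UMI of cyclin E (Ccne1 or Ccne2) without Top2a or Cdk1, 14.6% had both kinds, 37.0% only Top2a or Cdk1 and 40% neither, against 3.50%, 0.634%, 12.0% and 83.8% of resting cells.

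The 10 genes most apart from resting cells, taken by the smallest ratio over the libraries, included Pclaf, Fam111a, Exo1, Dscc1, Mcm10, Rmi2, Fignl1 and Brca1, all known in replication or in repair of DNA. Pclaf, whose promoter is shown above, stood at 77.8, 141, 156, 104 and 121 CPM in members and at 2.73, 5.36, 3.95, 2.16 and 4.03 CPM in resting cells. It was 33.6-fold higher with ratios of 26.2 to 48.4, and 2.88-fold higher again in G2 and mitosis. Fam111a, a protease that clears obstacles from the fork, was 31.4-fold and Dscc1, of a clamp loader used in cohesion, 30.9-fold higher. Rmi2, of the complex that dissolves crossed strands, was the only one of the 10 whose mean level in G2 and mitosis lay under that in S phase, at 0.663 of it. Of the 141 higher genes outside the cell cycle lists, 113 had a promoter entry, and of these 23 held E2F-type letters (20.4%) and 29 CHR letters (25.7%). Among all genes tested with an entry the shares were 4.62% and 14.1%, and among all genes with an entry, tested or not, 2.60% and 20.2%. Of the 10 genes above, 6 had a promoter entry and 1 of these, Pclaf, held E2F-type letters.

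At the other end, the 10 genes furthest below resting cells, taken by the largest ratio over the libraries, were led by H19. This imprinted non-coding RNA was at 2.49, 2.15, 2.12, 0.908 and 2.10 CPM in members and at 10.9, 23.6, 20.2, 8.19 and 9.71 CPM in resting cells, lower in each library and 7.18-fold on average. The next were Pcdh9, a protocadherin (6.07-fold lower), Col5a2, a collagen chain, Runx1t1, Stc1, a secreted glycoprotein, Itih2, Tbx3, Ptger3, a prostaglandin receptor, Cald1 (6.12-fold) and Plat, tissue plasminogen activator. Apart from Cald1, all of these genes rest on few UMIs in members, also those given with a fold. H19 had 11, 10, 8, 3 and 10 UMIs at 2 to 6 wk, and 2 members held 9 of the 11 at 2 wk. Pcdh9 had 9, 16, 12, 11 and 3 UMIs. Stc1 had 2, 1, 15, 3 and 2 UMIs, Ptger3 3, 7, 1, 1 and 7, and Tbx3 0, 2, 2, 2 and 1. The interval of the ratio reached past 1 at 2 wk for Stc1 (to 1.54) and Ptger3 (to 1.43), at 2 and 3 wk for Itih2 (to 3.09 and 1.01), at 3 and 4 wk for Plat (to 1.02 and 1.09) and at 3, 4 and 6 wk for Tbx3 (to 1.31, 1.69 and 1.07). Col5a2 was at a mean log2 ratio of -2.83, and at -2.18 without the 4 wk library, where members held 1 UMI of it. Several of these genes are at higher levels in Dcn-rich stromal cells than in resting granulosa cells, Col5a2 at 122 against 10.4 CPM, Runx1t1 at 44.5 against 5.15 CPM and Plat at 63.1 against 6.34 CPM. The 7 stromal markers summed to 73.0 CPM in resting granulosa cells and 43.4 CPM in members pooled over ages, and their part in these differences was not tested. The count of lower genes was less stable than that of the higher ones, 6 in place of 26 when resting cells were matched to members on total UMIs, 2 with mean UMIs per cell and 125 without the 2 wk library.

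Most ribosome assembly genes stood a little higher and most stress genes a little lower, none by 2-fold in every library. Of 12 nucleolar genes, 11 were above resting cells in all 5 libraries, against 17.8% of all genes tested, with a median of 0.53. Ncl, nucleolin, stood at 1436, 1552, 1292, 1382 and 1287 CPM in members against 1050, 1148, 884, 840 and 839 CPM. Of 10 genes known to respond to dissociation, 8 were below resting cells in all 5 libraries, against 22% of all genes tested, with a median of -0.54, and the direction turned for Fos (-0.41 to 0.21), Jun (-0.35 to 0.27) and Egr1 (-0.60 to 0.02) with mean UMIs per cell. Of 12 genes of the p53 response and cell death, 2 were above in all libraries and 3 were below, close to the shares over all genes, among them Bbc3, the death effector PUMA, at 0.476 of the resting level.

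Markers of follicle stage differed between the ages in members and in resting cells. At 2 wk most cells of both classes carried markers of small growing follicles, and from 3 wk on a part of them carried the antral activin subunit. Against resting cells, 0 of 13 granulosa identity genes, 0 of 2 tested primordial, 0 of 7 preantral, 0 of 8 antral and 0 of 4 cumulus-like genes were called at 2-fold in either direction, with medians of -0.04, -0.41, 0.37, 0.23 and 0.88 (log2). Gatm (ENSMUSG00000027199), the first enzyme of creatine synthesis and a marker of preantral follicles here, stood at 478, 54.4, 27.9, 76.3 and 83.6 CPM in members and at 550, 111, 38.4, 77.2 and 102 CPM in resting cells. The 2 wk library was highest in both groups and 4 wk lowest, and the level at 2 wk was 6.26-fold that at 5 wk (5.49 to 7.16) in members and 7.12-fold in resting cells. Of 9212 genes tested, 390 (4.23%) were at least 2-fold higher at 2 than at 5 wk in members and 315 (3.42%) at most 0.5 of it.

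Igfbp5, an IGF binding protein, followed Gatm, at 667, 144, 30.5, 95.3 and 96.6 CPM in members and 1059, 447, 72.3, 115 and 183 CPM in resting cells. The basement membrane collagen Col18a1 was 6.42-fold, the laminin receptor subunit Itga6 4.45-fold, Wnt4 2.74-fold and the transcription factor Foxl2 2.30-fold higher at 2 than at 5 wk. In all, 3 of the 7 preantral genes were past 2-fold in that direction, against 4.23% of all genes tested. For Gatm and Foxl2 this rests on 2 wk alone: with the 3 wk library in its place the log2 ratios to 5 wk were -0.49 and -0.35. Igfbp5 (144 against 95.3 CPM), Itga6 and Wnt4 were also less than 2-fold higher at 3 than at 5 wk. Col18a1 was still past 2-fold, at 141 against 52.7 CPM. The primordial follicle gene Kctd14 stood at 1388, 688, 525, 537 and 760 CPM, whereas Gng13 and Lgr5, of the same list, were at 3.22 CPM or less.

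Inhba (ENSMUSG00000041324), the activin and inhibin beta A subunit, was opposed to Gatm in 2 wk against the later ages. It stood at 6.78, 356, 198, 625 and 993 CPM in members at 2, 3, 4, 5 and 6 wk, at 62.6, 110, 48.6, 393 and 1025 CPM in resting cells and at 89.8, 623, 156, 602 and 1271 CPM in G2 and mitosis. At 2 wk members were the lowest of the 3 classes, and at 3, 4 and 5 wk they were above resting cells. The level in members at 2 wk rests on 30 UMIs and lies under the 9.70 CPM of resting stromal cells of the same library, so no fold against it is given. Of the 8 antral genes, 6 were at least 2-fold higher at 5 than at 2 wk, against 3.42% of all genes tested. Among them were Nap1l5, a nucleosome assembly protein homolog, at 18.2-fold (14.6 to 23.0), Nppc, the peptide that keeps the oocyte arrested, at 3.57-fold, and Bex4 at 3.40-fold. Fst, follistatin, and Inhbb were also above 1, at 1.75-fold and 1.68-fold.

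Amh was higher in members than in resting cells, as it was in cells in G2 and mitosis at every age but 3 wk. It stood at 708, 900, 1016, 451 and 430 CPM in members, at 519, 808, 317, 151 and 176 CPM in resting cells and at 617, 785, 797, 495 and 338 CPM in G2 and mitosis, with the highest ratio to resting cells, 3.21, at 4 wk. Members were above resting cells at every age, least at 3 wk. After thinning to 8000 UMIs, 92.1%, 85.8%, 89.4%, 71.7% and 68.3% of members had a UMI of Amh (97.0%, 91.7%, 94.1%, 79.4% and 80.9% before thinning), against 80.4%, 88.9%, 57.2%, 29.4% and 35.9% of resting cells, 86.8%, 79.5%, 81.7%, 67.0% and 53.3% of cells in G2 and mitosis and at most 8.78% of Dcn-rich stromal cells. Ihh, a hedgehog ligand of granulosa cells, was 2.05-fold over resting cells, at 129, 117, 95.5, 92.6 and 130 CPM, and was above them in each library. The cumulus-like list, which shares Amh, was above resting cells in all libraries in 4 of 4 genes (17.8% of all genes tested were), with Slc38a5, an amino acid transporter, at 6.33, 74.4, 260, 244 and 193 CPM. Its ratio to resting cells was only 1.02 at 2 wk, and it was higher still in G2 and mitosis in every library, at 13.1, 133, 318, 400 and 329 CPM.

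Of 7 genes of estrogen synthesis, 1 (Cyp11a1) was at least 2-fold lower than in resting cells in every library and none higher, with a median of 0.21. Hsd17b1, which makes estradiol from estrone, stood at 143, 147, 211, 434 and 547 CPM in members, highest at 6 wk. Cyp19a1, aromatase, stood at 6.33, 6.45, 1.33, 10.6 and 16 CPM, against 9.08, 2.21, 0.465, 10.3 and 14.7 CPM in resting cells, close to them at 5 and 6 wk, and 2.86-fold under G2 and mitosis. Its ratio of 5 over 2 wk had an interval of 0.989 to 2.86 that takes in 1. Cyp11a1 and Star, of the first step of steroid synthesis, were lower in members, with Cyp11a1 at 115 CPM at 5 wk, of which 1 member held 341 of 381 UMIs, against 1637 CPM in resting cells, where 199 of 1029 cells had at least 3 UMIs of a theca, blood or endothelial gene. The part of those cells in the difference was not tested.

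**Figure D4:**
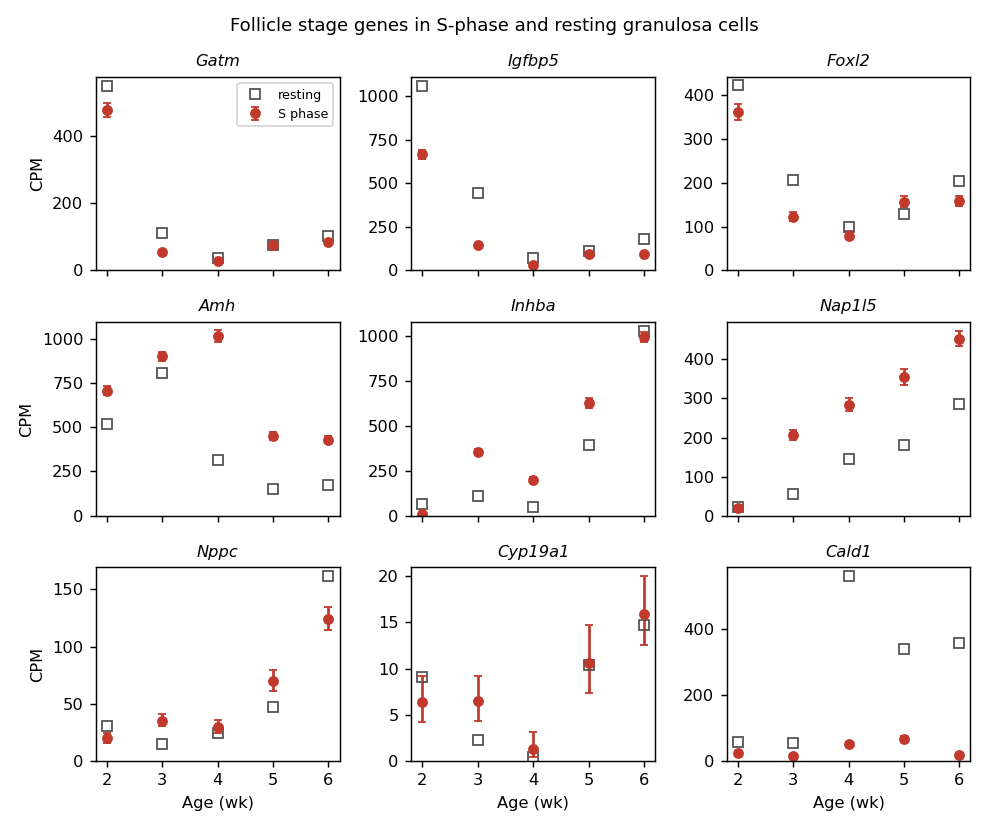
CPM (y axes, linear from 0) of 9 follicle stage genes at each age (x axes, wk) in S-phase cells (red circles, exact 95% Poisson intervals) and in resting granulosa cells (open squares). Gatm, Igfbp5 and Foxl2 are highest at 2 wk, Inhba, Nap1l5 and Nppc at 6 wk, and Cald1 is lower in S-phase than in resting cells at every age.

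From 3 wk on, most cells with a UMI of Inhba held none of Gatm or Igfbp5, in members as in resting cells, whereas at 2 wk 7 of the 8 members with Inhba also held one of them. After thinning, 91.6% of members at 2 wk had a UMI of Gatm or Igfbp5 and none of Inhba, and the share was 45.5%, 20.6%, 37.7% and 36.2% at 3 to 6 wk, where Igfbp5 at 4 and 5 wk is near or under its share in stromal cells. Resting cells of this class made up 91.6%, 73.7%, 20.0%, 25.7% and 29.3% at 2 to 6 wk, the same share as members at 2 wk and a larger one at 3 wk. Members with Inhba and neither of the others made up 0.495%, 20.6%, 33.0%, 23.2% and 28.6%, and those with both kinds 3.47%, 6.72%, 3.21%, 6.52% and 10.6%. Resting cells with Inhba alone were fewer than members at 3 and 4 wk, at 5.07% and 10.9%, and more at 6 wk, at 34.7%. A UMI alone is weak evidence in droplet data: Inhba was found in 3.96% of members at 2 wk, under the 5.24% of stromal cells of that library, so it is at background there. At 3 to 6 wk Inhba was in 27.3% to 39.2% of members, above stromal cells, and before thinning in 33.2% to 46.2%. Gatm was in 76.7%, 22.9%, 14.7%, 29.0% and 27.6% of members (87.1%, 36.8%, 24.5%, 48.2% and 50.3% before thinning) and in 13.7%, 3.32%, 4.08%, 4.74% and 8.88% of stromal cells, so it was above them at every age. Igfbp5 at 4 wk was in 13.8% of members against 24.1% of stromal cells, which hold this gene themselves (209 CPM in resting stromal cells). Its level in members was 144 CPM at 3 wk and 96.6 CPM at 6 wk, against 143 and 136 CPM in resting stromal cells of the same libraries. Its shares from 3 wk on are therefore not read as a signal of stage.

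**Figure D5:**
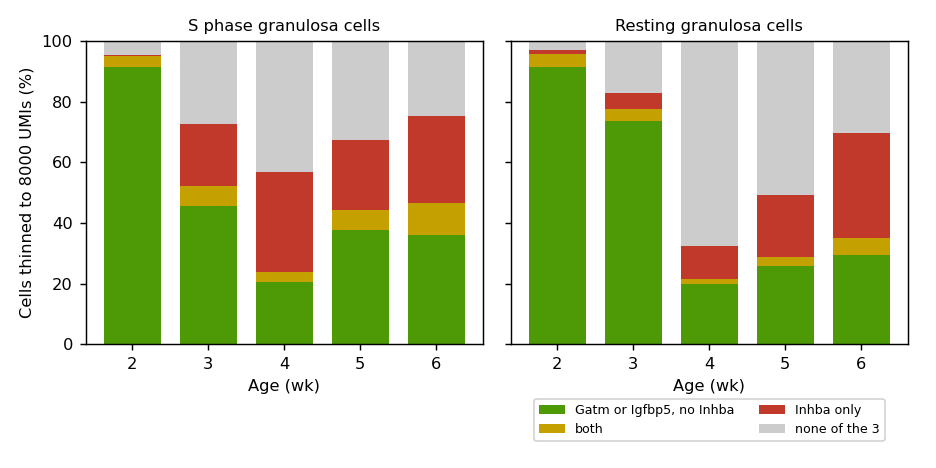
Share of S-phase cells (left panel) and of resting granulosa cells (right panel) in 4 classes (y axes, percent) at each age (x axes, wk). The classes are cells with a UMI of Gatm or Igfbp5 and none of Inhba, of both kinds, of Inhba alone, or of none of the 3. Each cell was thinned to 8000 UMIs. In S-phase cells the first class is at 91.6% at 2 wk and 20.6% at 4 wk, and the class with Inhba alone at 0.495% and 33.0%. At 4 and 5 wk the first class includes Igfbp5 at shares that are near or under those of stromal cells and is not read as stage.

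Members held less than resting cells of the genes linked with remodeling or atretic follicles, and so did cells in G2 and mitosis. The 18 genes summed to 1264, 1575, 1635, 1467 and 931 CPM in members at 2 to 6 wk, to 1536, 2403, 4834, 3162 and 3186 CPM in resting cells and to 1089, 1256, 1929, 1337 and 1040 CPM in G2 and mitosis. Of 18 such genes, 10 were below resting cells in all 5 libraries, against 22% of all genes tested, 1 of them, Cald1, by 2-fold in each, and the list median was -1.22. Cald1, the actin-binding protein caldesmon, stood at 24.9, 15.7, 50.7, 64.8 and 18.7 CPM in members and at 57.3, 52.7, 560, 340 and 357 CPM in resting cells. The gap was widest at 4 to 6 wk, where resting cells were high, and it remained with mean UMIs per cell (log2 of -1.99). Sox4, a transcription factor, stood at 903, 995, 794, 607 and 544 CPM against 1084, 1548, 1983, 991 and 1382 CPM, and Apoe, apolipoprotein E, at 124, 105, 93.9, 195 and 80.9 CPM against 144, 249, 289, 540 and 232 CPM. Of the Apoe UMIs in members, 1 member held 113 of 354 at 4 wk and 1 member held 312 of 643 at 5 wk. Nupr1, a stress-induced regulator, was above resting cells at 2 and 3 wk and below them at 4 to 6 wk. Cald1 is also a gene of stromal cells, where it was at 1022 CPM in resting cells, and stromal markers summed to 112.6, 57.7, 69.1, 94.0 and 38.2 CPM in resting granulosa cells, whose part in this result was not tested.

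Of 14 genes that the study followed between follicle waves, 6 were below resting cells in all 5 libraries, against 22% of all genes tested, 1 of them (Cald1) by 2-fold in each, with a median of -0.46. Wnt4 stood at 331, 195, 114, 121 and 161 CPM and Itga6 at 468, 167, 76.4, 105 and 137 CPM in members, both highest at 2 wk. Igf1, the insulin-like growth factor, stood at 32.3, 131, 303, 193 and 166 CPM, highest at 4 wk. Grb14, an adaptor that inhibits the insulin receptor, stood at 34.6, 57.0, 398, 404 and 203 CPM in members and at 61.6, 68.7, 980, 682 and 775 CPM in resting cells, below them at every age.

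Among all genes, those most above 5 wk at 2 wk in members were Amd2, an S-adenosylmethionine decarboxylase gene (18.4-fold, 8.26 to 51.0), Gstm6, a glutathione transferase (13.7-fold), AC160336.1 (8.42-fold), Aard (7.96-fold) and Emx2os (7.54-fold). Aard stood at 555, 79.3, 39.0, 69.6 and 95.8 CPM, the same order of 2 wk over all other ages as Gatm. In resting cells the same ratio was 14.7-fold for Amd2 and 8.65-fold for Aard. At 5 wk the ratios of Amd2 and Emx2os rest on 6 and 10 UMIs in members. Amd2 and AC160336.1 were higher at each of 2, 3 and 4 wk than at 5 and 6 wk, in members and in resting cells. AC160336.1, for example, stood at 81.6, 38.7, 54.4, 9.69 and 14.1 CPM in members. The counting software changed between 4 and 5 wk, so it cannot be told apart from age there. In the other direction stood Cd74, Inhba, Lyz2, H2-Ab1 and Slc38a5. Cd74, Lyz2 and H2-Ab1, all of immune cells, rest on 1 member at 5 wk, which held 201 of 206, 99 of 103 and 96 of 98 of their UMIs. Slc38a5 at 2 wk, at 6.33 CPM, was under the 32.8 CPM of resting stromal cells of the same library, as Inhba was.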

How the data were processed

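Ovarian cells were dissociated, sorted for live cells and made into 1 library for each weekly age from 2 to 6 wk with the 10x 3′ v3.1 kit. Per the labels and the methods, the authors mapped the reads to mm10 with Cell Ranger, of which the methods name versions 3.1.0 and 6.0.1, and analysed them with Seurat 4.1.0. The file headers place 3.1.0 at 2 to 4 wk and 6.0.1 at 5 and 6 wk, so software and age cannot be told apart between 4 and 5 wk. The deposited values are raw UMI counts per gene and cell. The libraries of 2, 3, 4, 5 and 6 wk held 124938004, 93438618, 117666094, 107071492 and 144609431 UMIs, and 7756, 7660, 9169, 6558 and 8824 of their cells passed the limits of 1000 genes and 15% mitochondrial UMIs.

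Counts were summed over the cells of a class in each library and divided by their total to give CPM, with Python 3.11.15, numpy 2.4.6, scipy 1.17.1 and pandas 2.3.3. Ratios of S-phase over resting cells were taken within a library, for genes with at least 50 UMIs outside the 14 genes of the rule, and a gene was counted as higher or lower when the ratio was at least 2 or at most 0.5 in each of 5 libraries, with a floor of 3 UMIs for a class at 0. A mean fold is the geometric mean of the 5 ratios. With 1 library per age no test was made. Intervals are exact Poisson, exact binomial (Clopper-Pearson) or, for a ratio of counts, exact conditional on their sum, at 95%. Shares of cells with a UMI were taken after each cell was thinned to 8000 UMIs, which left 1010 of 1015 members and 5204 of 5964 resting cells. Stromal S-phase and resting stromal cells (299 and 9650) were chosen by Dcn of at least 5 UMIs and Inha under 5, with the same cell cycle limits. Doublets were scored with Scrublet in scanpy 1.11.5 and kept. The ratio step was tested on simulated data.

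The members, the gene lists and the rules for naming genes were chosen with earlier results of these data known. Genes named are those of the lists, the 10 with the highest smallest ratio and the 10 with the lowest largest ratio among genes with at least 200 UMIs, and the 5 highest and 5 lowest ratios of 2 over 5 wk among genes with at least 100 UMIs, and a few of them are not reported here. Promoters are those of RefSeq on GRCm38.p6, matched by gene symbol. No share is given here for the 243 higher genes as a whole, of which 79.0% matched.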

Additional observations from a re-analysis of the deposited data

Results flagged for a closer look

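With 1 library per age, a difference between ages in the ratio of S-phase over resting cells could not be tested. For 5 listed genes the ratio was at least 2 in 1 library and at most 0.5 in another. Inhba stood at a ratio of 0.108 at 2 wk (0.0727 to 0.156) and at 3.23 (3.01 to 3.46) and 4.08 (3.69 to 4.51) at 3 and 4 wk, with 30 UMIs in members at 2 wk, a level under that of resting stromal cells of that library. Cdkn2c, the CDK inhibitor p18, was at 0.186 at 5 wk and at 2.09 at 6 wk. These ratios rest on 10 and 22 UMIs in members, against 257 and 40 UMIs in resting cells. Resting cells of 2, 3 and 4 wk held 10, 5 and 11 UMIs of it. At 5 wk 194 of 1029 resting cells had at least 3 UMIs of the theca gene Cyp17a1, whose part in the ratio was not tested.

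The other genes belong to the remodeling list and were each above resting cells at 3 wk. S100a6, a calcium-binding protein, was at 3.57 at 3 wk and at 0.358 and 0.360 at 4 and 5 wk, and 1 member held 28 of its 51 UMIs at 3 wk. Agt, angiotensinogen, was at 2.05 at 3 wk and at 0.437 and 0.293 at 4 and 6 wk. Adamts5, a matrix protease, was at 2.21 at 3 wk and at 0.174 and 0.245 at 4 and 6 wk. No sample group held more than 1 library, so no library was checked against others of its group.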

How the results depend on the processing

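No paired analysis was possible because no test was made: ages have 1 library each, and the ratios of S-phase over resting cells, already taken within each library, rest on a contrast that chose the cells. The count of 243 genes higher in S-phase cells stayed within 1.5 times, at 191 to 304, under every alternative except mean UMIs per cell, which gave 623. The count of 26 lower genes was 14 against resting cells with fewer than 5 of the 8 replication genes, 6 against resting cells matched on total UMIs, 17 with ratios scaled to the median gene and 2 with mean UMIs per cell, and leaving out a library gave 34 to 125 (125 without 2 wk and 56 without 3 wk). Higher genes made up 90.3% of the calls, 99.7% with mean UMIs per cell, 97.0% against matched resting cells and 70.9% without 2 wk. Leaving out cells with at least 3 UMIs of Cyp17a1, Cd74, Lyz2 or Cdh5, a choice made after seeing the data, gave 244 higher and 23 lower genes. The share of the gate at 2, 3, 4, 5 and 6 wk was 14.55%, 14.2%, 9.38%, 9.10% and 10.2% with at least 4 replication genes, 5.90%, 6.73%, 4.53%, 4.12% and 5.10% with at least 6, 19.35%, 20.7%, 17.8%, 17.2% and 21.3% with mitotic UMIs allowed, and 5.43%, 7.11%, 5.42%, 4.52% and 5.61% after thinning. The log2 ratio of 2 over 5 wk turned for Gatm (-0.49) and Foxl2 (-0.35) with 3 wk in place of 2 wk. With that change the ratio to 5 wk fell under 2-fold for Igfbp5, Itga6, Wnt4 and Aard, while Col18a1, Amd2 and Gstm6 stayed past 2-fold. In the other direction, Nap1l5 was less than 2-fold higher at 5 than at 3 wk. The cause of these shifts was not tested. For the 116 listed or named genes called, all 1933 alternative values kept their direction.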
